A study of Mus musculus with 15 samples.

Results

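The 31 genes described here encode the enzymes of the citric acid cycle and the proteins that admit, divert or gate its substrates. They were chosen by name, by a rule that uses no measured value but was set with earlier results of these data known, and 31 of 31 were found among the 27907 genes of the deposited table. All 31 passed the filter on low values that left 21525 genes for testing. By role they comprised 14 cycle enzymes, 12 proteins of pyruvate entry, 2 enzymes that make or use oxaloacetate and 3 enzymes that supply NADPH. Succinate dehydrogenase was left out of the set because it belongs to the respiratory chain as well. Ovarian RNA of 7 HSD17B1-KI and 8 wild-type (WT) female mice had been sequenced, 1 library per mouse, all at 6 months of age and in estrus. HSD17B1-KI mice are homozygous for a knock-in allele, Ser143Ala, made with CRISPR/Cas9, in which the serine of the active site of HSD17B1 is an alanine, and the WT mice came from the same heterozygous breeding. No other allele or agent was stated for either group. The comparison asks how ovarian expression differs in mice whose HSD17B1, the granulosa cell enzyme that reduces estrone to estradiol, has lost its catalytic serine.

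In the citric acid cycle, mitochondria oxidize the acetyl group of acetyl-CoA to carbon dioxide and load the electrons onto NADH and FADH2, which feed the respiratory chain. Pyruvate, the end product of glycolysis, enters the mitochondrion through the pyruvate carrier and is turned into acetyl-CoA by the pyruvate dehydrogenase complex, which kinases switch off by phosphorylation and phosphatases switch on again. In the ovary the same set has a second side. Steroid-making cells need NADPH for their cytochrome P450 enzymes and for the reducing HSD17B enzymes, and malic enzyme and the NADP-dependent isocitrate dehydrogenases are among its sources, while growing oocytes are known to take up pyruvate that granulosa cells provide.

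Expression was compared on log2(normalized count + 1), where a normalized count is the number of reads of a gene divided by the size factor of its library. limma-trend was fitted on the 21525 genes with genotype as the only term, and all of them entered the Benjamini-Hochberg adjustment of the two-sided p-values. The threshold was an adjusted p of 0.05. Log2 fold changes are given as HSD17B1-KI over WT on this scale. In whole ovaries, fewer cells of a type and less RNA per cell cannot be told apart. Recovered reads per mouse ranged from 39092867 to 69972608 in HSD17B1-KI and from 26544745 to 72362981 in WT. The libraries WT 1 and WT 8 stood apart, with 203321 and 127890 normalized counts of Ovgp1, the oviductal glycoprotein, against at most 14962.5 in every other mouse, so that the counts of members are also given without both. Hsd17b1 itself had a median of 10914 normalized counts in HSD17B1-KI (5459 to 17386) and 7672 in WT (6480 to 14111), and as the allele is a point substitution this count does not check the genotype. Markers of granulosa cells, theca cells, luteal cells and oocytes were all detected.

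One gene of the set, Pdk2, was higher in HSD17B1-KI ovaries by limma-trend, and 24 of the 31 genes had a log2 fold change above 0. The median log2 fold change of the 31 genes was 0.10, whereas it was -0.02 over all genes tested and 0.0058 over the 8854 genes that averaged 1000 normalized counts or more. With an adjusted p under 0.05, limma-trend called 1 of 31 genes, where 0.214% of all genes tested were called in either direction. edgeR called the same gene and 0.232% of all genes. DESeq2 on the recovered reads called 4 of 31, Pdk2, Sucla2, Pdhx and Idh3g, all higher in HSD17B1-KI, where it called 1.59% of its 19790 genes as higher. It called none of the 31 as lower, against 0.718% of its genes.

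Before adjustment, 7 of 31 genes were higher at a limma-trend p under 0.05 (Pdk2, Pdhx, Sucla2, Idh3g, Suclg2, Fh1 and Suclg1), where 5.36% of all genes were. Among the 8854 genes that averaged 1000 normalized counts or more, as all of the 31 except Pdp2 did, that share was 7.61%. Only Mpc2 was lower at that threshold, 1 of 31 against 4.64%. A log2 fold change above 0 was found for 24 of 31 genes and for 44.8% of all genes. That share was not taken for the genes averaging 1000 or more, whose median log2 fold change was 0.0058, just above 0. In 2 of 31 genes, Sucla2 and Pdk2, every HSD17B1-KI mouse lay above every WT mouse, as was so for 0.274% of all genes. The median residual SD, the spread between mice within a genotype, was 0.15 on the log2 scale for the 31 genes and 0.33 over all genes tested. The plot of fold changes by role shows the span of the intervals.

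**Figure D1:**
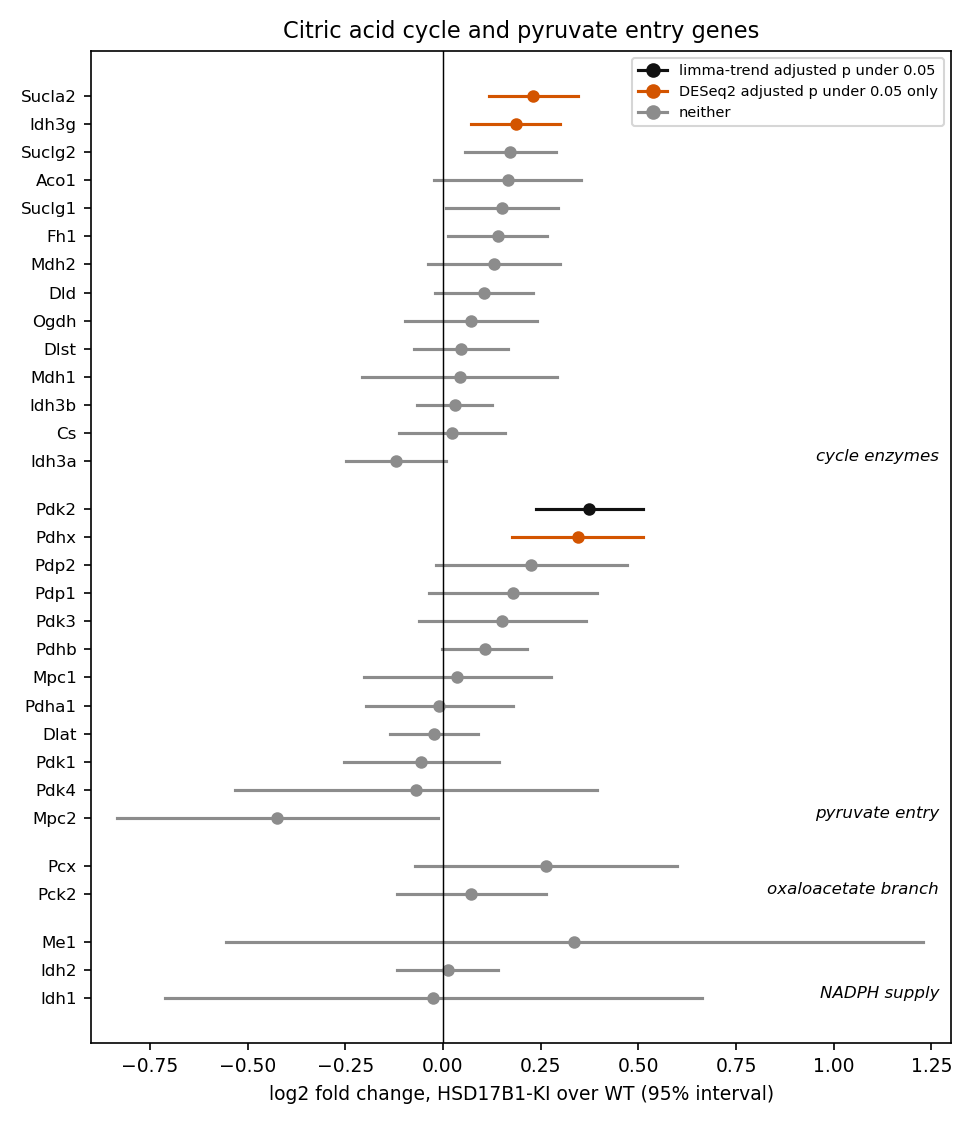
Log2 fold change of each of the 31 genes, HSD17B1-KI over WT (points), with its 95% interval from limma-trend (lines), grouped by role. Only Pdk2 (0.37) passes the limma-trend adjusted threshold, Sucla2, Idh3g and Pdhx pass that of DESeq2, and the widest intervals are those of Me1 and Idh1.

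Without WT 1 and WT 8, limma-trend called 0 of 31 genes after adjustment and 9 genes in all. Before adjustment 5 of 31 were higher and 0 lower, against 4.77% and 4.07% of all genes. DESeq2 called 2 of 31, Pdk2 and Sucla2, of 244 genes in all. In limma-trend the log2 fold changes were then 0.40 for Pdk2, 0.24 for Sucla2, 0.30 for Pdhx and 0.16 for Idh3g. Pdk2, Pdhx, Sucla2, Idh3g and Suclg2 had an unadjusted p under 0.05 in limma-trend under each setting that was run, including every fit without 1 mouse, and in edgeR and DESeq2 on all mice. Suclg1, Fh1 and Mpc2 did not.

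The 4 genes called by DESeq2 are shown by the 250 bases before their RefSeq start on GRCm38.p6, 5′ to 3′ on the strand of the gene, because they are the members on which the comparison turns. Capitals mark the letters CCAAT on either strand (ATTGG on the other), the CCAAT box of many promoters of metabolic genes. The windows are chr11:95041372-95041621 on the minus strand for Pdk2, chr14:73552536-73552785 on the plus strand for Sucla2, chr2:103073514-103073763 on the minus strand for Pdhx and chrX:73786898-73787147 on the minus strand for Idh3g. For Sucla2, this RefSeq start lies inside the gene span of GENCODE.
Pdk2: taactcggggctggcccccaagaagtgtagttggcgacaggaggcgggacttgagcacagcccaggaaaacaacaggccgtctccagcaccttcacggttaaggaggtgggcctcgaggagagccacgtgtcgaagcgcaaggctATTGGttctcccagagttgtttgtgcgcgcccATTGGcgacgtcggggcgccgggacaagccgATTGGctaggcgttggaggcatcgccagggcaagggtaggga
Sucla2: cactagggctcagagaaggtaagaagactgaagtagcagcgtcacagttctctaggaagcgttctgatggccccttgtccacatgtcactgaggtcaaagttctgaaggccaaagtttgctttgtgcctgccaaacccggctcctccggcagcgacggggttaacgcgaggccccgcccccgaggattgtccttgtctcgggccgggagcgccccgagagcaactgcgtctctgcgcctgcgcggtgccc
Pdhx: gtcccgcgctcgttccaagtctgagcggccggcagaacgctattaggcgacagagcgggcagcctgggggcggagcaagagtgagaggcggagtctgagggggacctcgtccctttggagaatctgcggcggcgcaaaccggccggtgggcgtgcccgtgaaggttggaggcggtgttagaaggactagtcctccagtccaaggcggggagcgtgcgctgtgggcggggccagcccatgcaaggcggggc
Idh3g: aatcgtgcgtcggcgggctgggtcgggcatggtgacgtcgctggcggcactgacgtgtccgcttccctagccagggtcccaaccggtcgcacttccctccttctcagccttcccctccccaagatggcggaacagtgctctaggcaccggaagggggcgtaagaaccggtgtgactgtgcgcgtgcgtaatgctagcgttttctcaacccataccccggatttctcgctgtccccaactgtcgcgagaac

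Pdk2 held the CCAAT letters 3 times in this window, beginning 105, 73 and 42 bases before the start, and had none in the window of its second RefSeq start. The other 3 genes had none. Of the 29 members with a promoter in the RefSeq table, 19 (65.5%) held the letters in at least 1 window, where 37.5% of 27025 genes did. Counted by window the share was 55% of 40 member windows and 33.8% of 32851 windows in all. The genes compared were all those of the RefSeq table, whether or not expressed in the ovary. No share was taken over expressed genes only. Another 4 longer motifs were searched on both strands in the same way, and none of the 29 members held any of them. These were TCAAGGTCA, the extended half-site of NR5A1 and ESRRA (0.422% of all genes), CCGGAAGT of the ETS factor GABPA (3.23%), the NRF1 palindrome (0.877%) and the nuclear receptor direct repeat with a spacer of 1 base (0.0407%). A match is only a run of letters in this window, and the absence of one says nothing of the factor.

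Pyruvate entry gave both the highest and the lowest fold change of the set. Of its 12 genes, 7 had a log2 fold change above 0, with a median of 0.07. Pdk2 (ENSMUSG00000038967, chr11:95026258-95041354 of GRCm38, minus strand) encodes pyruvate dehydrogenase kinase 2, which phosphorylates and inactivates the pyruvate dehydrogenase complex. Its normalized count ranged from 2962 to 3709.6 in HSD17B1-KI, with a median of 3487, and from 2259 to 2775 in WT, with a median of 2577. The lowest HSD17B1-KI mouse, HSD17B1-KI 7, was above the highest WT mouse, WT 1, and of the 7 HSD17B1-KI values 4 were at 3487 or more and 3 at 3032 or less. The means were 3335 ± 318 (SD, n = 7) and 2566 ± 157 (SD, n = 8), a log2 fold change of 0.37 (SE 0.064, 95% interval 0.24 to 0.51) with a limma-trend adjusted p of 0.0276. In DESeq2 the adjusted p was 1.9e-05 and in edgeR 0.0242. With a replicate block the call was lost (limma-trend adjusted p = 0.371), although the replicate numbers do not pair the mice, and over the other settings of limma-trend, edgeR and DESeq2 the adjusted p ran from 1.9e-05 to 0.0800. In the fits without 1 mouse, Pdk2 was called in 5 of 15 by limma-trend and in 15 of 15 by DESeq2.

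The other kinases did not pass the test, and each of their ranges overlapped between the genotypes. Pdk1, the kinase known for its induction in hypoxia, ranged from 1746 to 2437 (median 2051) in HSD17B1-KI and from 1839 to 2873 (median 2033) in WT, with a log2 fold change of -0.06 (limma-trend adjusted p = 0.885). Pdk3 ranged from 1195 to 1647 (median 1438) and from 1078 to 1717 (median 1253), with a log2 fold change of 0.15 (adjusted p = 0.666). Pdk4, the kinase known for its induction in fasting, varied most of the 4, from 726 to 1529 (median 1112) in HSD17B1-KI and from 799 to 1938 (median 1147) in WT. Its log2 fold change was -0.07 (SE 0.22, adjusted p = 0.945). WT mice were split for Pdk4, as WT 4, WT 8, WT 7 and WT 5 had 1369 normalized counts or more and the other 4 had 926 or fewer.

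The exon length of a gene was that of all its annotated exons merged, whichever transcripts are expressed, 7779 bases for Pdk1 and 3163 for Pdk2. Per kilobase of exon, Pdk2 was the most abundant of the kinases in both genotypes. Of the 4 kinases' summed level per kilobase it made up 47.9 ± 4.2% in the 7 HSD17B1-KI mice (SD) and 41.9 ± 2.6% in the 8 WT mice (SD), with single mice from 41.3% to 52.6% and from 39.6% to 46.3%. The share of Pdk3 was 25.4 ± 3.3% and 26.0 ± 4.0%, that of Pdk4 was 14.8 ± 2.9% and 17.99 ± 5.6%, and that of Pdk1 was 11.9 ± 1.1% and 14.2 ± 2.6%. The shares of all 4 kinases overlapped between the genotypes, and were not tested.

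The phosphatases, which remove these phosphates, did not pass either. Pdp1, the catalytic subunit regulated by calcium, had a log2 fold change of 0.18 (adjusted p = 0.588), with HSD17B1-KI 6 at 3976 and the other 6 HSD17B1-KI mice between 2342 and 2859. Pdp2, the lowest of the 31 genes per kilobase, had a log2 fold change of 0.23 (adjusted p = 0.538), with 744 to 1004 normalized counts in HSD17B1-KI and 506 to 959.6 in WT.

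The pyruvate dehydrogenase complex has 5 of its subunits in the set, of which Dld, shared with oxoglutarate dehydrogenase, is given with the cycle enzymes. None passed limma-trend after adjustment, and DESeq2 called Pdhx. Pdhx (chr2:103021075-103073513, minus strand) encodes the E3-binding protein, which anchors dihydrolipoamide dehydrogenase to the core of the complex. It ranged from 1965 to 2550.5 normalized counts in HSD17B1-KI (median 2244) and from 1509 to 2105 in WT (median 1739), and 5 of 7 values in HSD17B1-KI exceeded the WT range. The means were 2246 ± 204 (SD, n = 7) and 1772 ± 200 (SD, n = 8), with a log2 fold change of 0.34 (SE 0.078), a limma-trend adjusted p of 0.0903 and a DESeq2 adjusted p of 0.00689. DESeq2 called Pdhx in 15 of 15 fits without 1 mouse but not without WT 1 and WT 8 together (adjusted p = 0.0594). Neither tool called the catalytic subunits, and their differences from Pdhx were not tested. Pdhb, the E1 beta subunit, had a log2 fold change of 0.11 (limma-trend adjusted p = 0.509), Pdha1, the E1 alpha subunit that the kinases phosphorylate, -0.0096 (adjusted p = 0.981) and Dlat, the E2 core, -0.02 (adjusted p = 0.924). Their ranges overlapped throughout, with 4970 to 5952 normalized counts in HSD17B1-KI and 4679.9 to 5393 in WT for Pdhb, 4400.4 to 6275 and 4550.4 to 6119.96 for Pdha1, and 2933 to 3140.4 and 2806 to 3483 for Dlat. The interval for Dlat, -0.14 to 0.09, is narrower than that for Pdha1, -0.20 to 0.18. In GENCODE, 16.1% of the exon bases of Pdha1 overlap Map3k15 on the opposite strand, and whether the reads were counted by strand is not given in the sources used here.

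The 2 subunits of the mitochondrial pyruvate carrier, which work as a heterodimer, both missed the threshold, and the difference between them was not tested. Mpc2 ranged from 1224 to 2057 normalized counts in HSD17B1-KI (median 1576) and from 1352 to 3450.3 in WT (median 1826). None of the 7 values in HSD17B1-KI reached the WT mean, yet the ranges overlapped, and the WT mean was carried by WT 1, WT 2 and WT 5 at 3450.3, 3179 and 2644. The means were 1560.2 ± 274 (SD, n = 7) and 2183 ± 798 (SD, n = 8), with a log2 fold change of -0.42 (SE 0.19), the lowest of the 31 genes, and a limma-trend adjusted p of 0.485. Mpc1 ranged from 1497 to 2113 (median 1776) in HSD17B1-KI and from 1479 to 2187 (median 1736) in WT, a log2 fold change of 0.04 (adjusted p = 0.943). Of the exon bases of Mpc1, 23.1% overlap 4930506C21Rik on the opposite strand, and the table also lists its pseudogene Mpc1-ps, so that its count is uncertain.

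**Figure D2:**
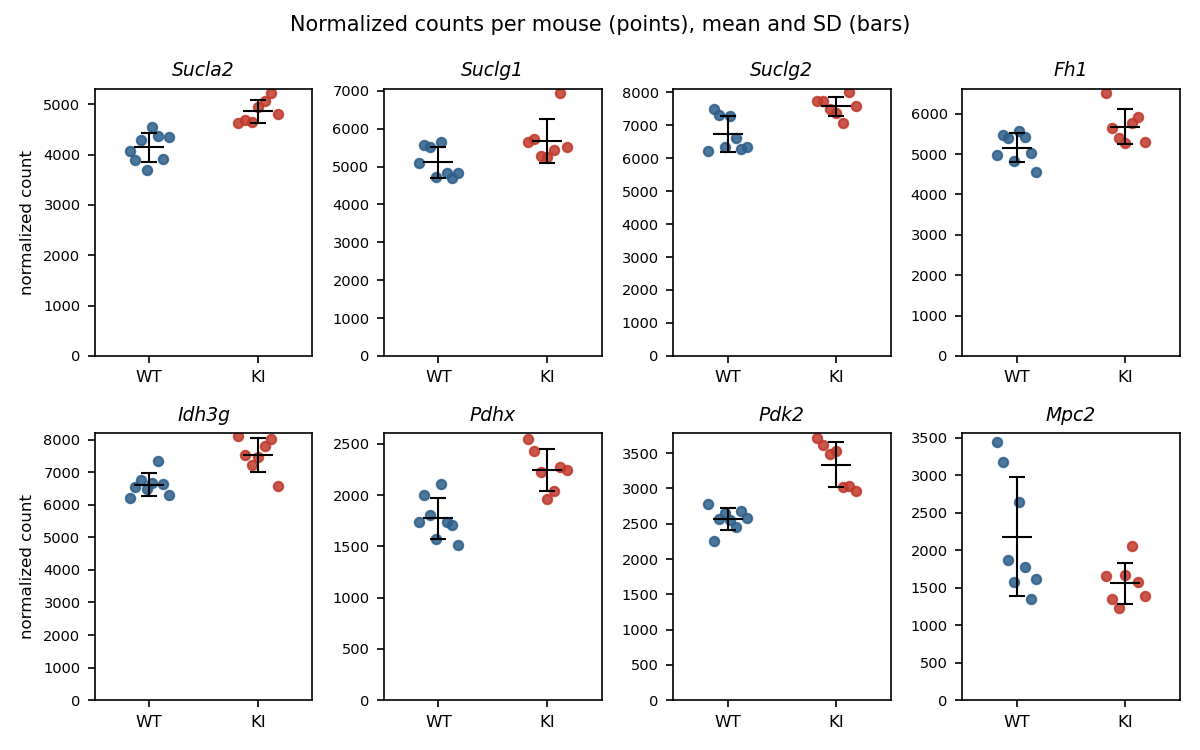
Normalized count of the 8 genes with an unadjusted limma-trend p under 0.05, one panel per gene, with each mouse as a point and the group mean and SD as bars (WT, n = 8, blue, and HSD17B1-KI, n = 7, red). The groups do not overlap for Sucla2 and Pdk2, and 3 of the WT points of Mpc2 lie above every HSD17B1-KI point.

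Among the 14 cycle enzymes, 13 had a log2 fold change above 0, with a median of 0.12, and the exception was Idh3a. None passed the limma-trend adjusted threshold. Before adjustment 5 of 14 were higher, where 5.36% of all genes and 7.61% of those averaging 1000 or more were, and DESeq2 called 2 of 14, Sucla2 and Idh3g, where it called 1.59% of all genes as higher. All 3 subunits of succinyl-CoA synthetase, which turns succinyl-CoA into succinate and makes the cycle's one nucleoside triphosphate, were among the 5. The alpha subunit (Suclg1) is shared by the ATP-forming enzyme, whose beta subunit is Sucla2, and the GTP-forming enzyme, whose beta subunit is Suclg2.

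Sucla2 (ENSMUSG00000022110, chr14:73525319-73596142, plus strand) ranged from 4629 to 5226.5 normalized counts in HSD17B1-KI (median 4807) and from 3699 to 4556 in WT (median 4185). All 7 HSD17B1-KI mice were above WT 5, the highest WT mouse. The means were 4858 ± 229 (SD, n = 7) and 4145 ± 294 (SD, n = 8), a log2 fold change of 0.23 (SE 0.054), with a limma-trend adjusted p of 0.0920 and a DESeq2 adjusted p of 0.00402. DESeq2 called it in 15 of 15 fits without 1 mouse and also without WT 1 and WT 8 together (adjusted p = 0.0227).

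Suclg2 ranged from 7079 to 8008 normalized counts in HSD17B1-KI (median 7575) and from 6208 to 7492 in WT (median 6479). WT 2, WT 3 and WT 5 lay among the HSD17B1-KI values and the other 5 WT mice below all of them. Its log2 fold change was 0.17 (SE 0.055), with a limma-trend adjusted p of 0.251 and a DESeq2 adjusted p of 0.0797. Suclg1 ranged from 5253 to 6939 (median 5513) and from 4694 to 5658 (median 4964), with a log2 fold change of 0.15 (limma-trend adjusted p = 0.477). Its highest value, that of HSD17B1-KI 6, was 1 of 2 above every WT mouse, and without that mouse the log2 fold change was 0.10.

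The NAD-dependent isocitrate dehydrogenase, a rate-setting step of the cycle, is built of alpha, beta and gamma subunits, none of which passed limma-trend after adjustment. Idh3g (chrX:73778963-73786897, minus strand), the gamma subunit, ranged from 6572 to 8099 normalized counts in HSD17B1-KI (median 7535) and from 6205 to 7339.95 in WT (median 6588). HSD17B1-KI 3 and HSD17B1-KI 7 lay within the WT range, and the other 5 of the 7 exceeded it. The means were 7529 ± 524 (SD, n = 7) and 6611 ± 347 (SD, n = 8), a log2 fold change of 0.19 (SE 0.054), with a limma-trend adjusted p of 0.192 and a DESeq2 adjusted p of 0.0299. DESeq2 called it in 5 of 15 fits without 1 mouse and not without WT 1 and WT 8 together (adjusted p = 0.189).

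Idh3b, the beta subunit, had the smallest residual SD of the 31 genes, 0.064 on the log2 scale, and a log2 fold change of 0.03 (limma-trend adjusted p = 0.869, 95% interval -0.07 to 0.13). Idh3a, the catalytic alpha subunit, ranged from 2847 to 3771 normalized counts in HSD17B1-KI and from 3294 to 3870.1 in WT. Its log2 fold change was -0.12 (SE 0.061, adjusted p = 0.536), with 5 of 7 HSD17B1-KI mice below every WT mouse. The differences between the 3 subunits were not tested.

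The remaining cycle enzymes did not pass. Fh1, fumarase, had the next lowest p, with 5264 to 6513 normalized counts in HSD17B1-KI, 4544 to 5562 in WT, a log2 fold change of 0.14 and a limma-trend adjusted p of 0.450. Aco1, the cytosolic aconitase that also serves as an iron-regulatory protein, had a log2 fold change of 0.17 (adjusted p = 0.563), Mdh2, the mitochondrial malate dehydrogenase, 0.13 (adjusted p = 0.625), and Mdh1, its cytosolic counterpart in the malate shuttle, 0.04 (adjusted p = 0.936). Cs, citrate synthase, the step that admits acetyl-CoA, had a log2 fold change of 0.02 with an interval of -0.11 to 0.16 (adjusted p = 0.938). In the 2-oxoglutarate dehydrogenase complex, Ogdh (E1) had a log2 fold change of 0.07 (adjusted p = 0.821), Dlst (E2) 0.05 (adjusted p = 0.839) and Dld (E3), which the complex shares with pyruvate dehydrogenase, 0.10 (adjusted p = 0.590). All of these ranges overlapped. Normalized counts lay between 9664 and 11999.8 in HSD17B1-KI and between 9473 and 12395 in WT for Cs, and between 9786 and 14262 and between 10958 and 13924 for Ogdh. Mdh2 ranged from 11787 to 16456 and from 10509 to 13666, and Mdh1 from 13136 to 19223 and from 11541 to 18175.5. For Dld each of the 7 HSD17B1-KI values exceeded the WT mean, but only 1 exceeded the WT range.

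Around oxaloacetate, both genes had a log2 fold change above 0 and neither passed. Pcx, pyruvate carboxylase, which refills the cycle with oxaloacetate, ranged from 4579.7 to 10030.4 normalized counts in HSD17B1-KI (median 6777) and from 4248 to 6905 in WT (median 6012). HSD17B1-KI 2 and HSD17B1-KI 3, at 10030.4 and 8176, were the only mice above the WT range. Its log2 fold change was 0.26 (SE 0.16, limma-trend adjusted p = 0.621), and 0.16 without HSD17B1-KI 2. Pck2, the mitochondrial phosphoenolpyruvate carboxykinase, which draws oxaloacetate off, ranged from 4392 to 5953 in HSD17B1-KI and from 3906 to 5479 in WT, with a log2 fold change of 0.07 (adjusted p = 0.841).

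The NADPH-supplying enzymes held the most abundant members and the most variable ones. Per kilobase of exon, Me1 ranked first and Idh1 second of the 31 genes, ahead of Mdh1 and Mdh2 and then Idh3g, Ogdh, Idh2 and Idh3b, while Pdk1, Mpc2 and Pdp2 were the lowest 3. These ranks depend on the merged exon length, which was 7344 bases for Mpc2 and 2082 for Mpc1. Me1, the cytosolic malic enzyme, ranged from 49725 to 212384 normalized counts in HSD17B1-KI (median 59113) and from 28819 to 155631 in WT (median 67243), which is 7.37-fold from the lowest to the highest mouse. Its log2 fold change was 0.34 with an interval of -0.56 to 1.23 (limma-trend adjusted p = 0.843), and without HSD17B1-KI 4, the highest mouse, it was 0.10. Idh1, the cytosolic NADP-dependent isocitrate dehydrogenase, ranged from 30492 to 60549 in HSD17B1-KI (median 33010.4) and from 17716 to 82964 in WT (median 50386), with a log2 fold change of -0.02 (adjusted p = 0.986). Idh2, the mitochondrial counterpart, kept within 5263 to 6575 in HSD17B1-KI and 5283 to 6455 in WT, with a log2 fold change of 0.01 (interval -0.12 to 0.14, adjusted p = 0.967).

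**Figure D3:**
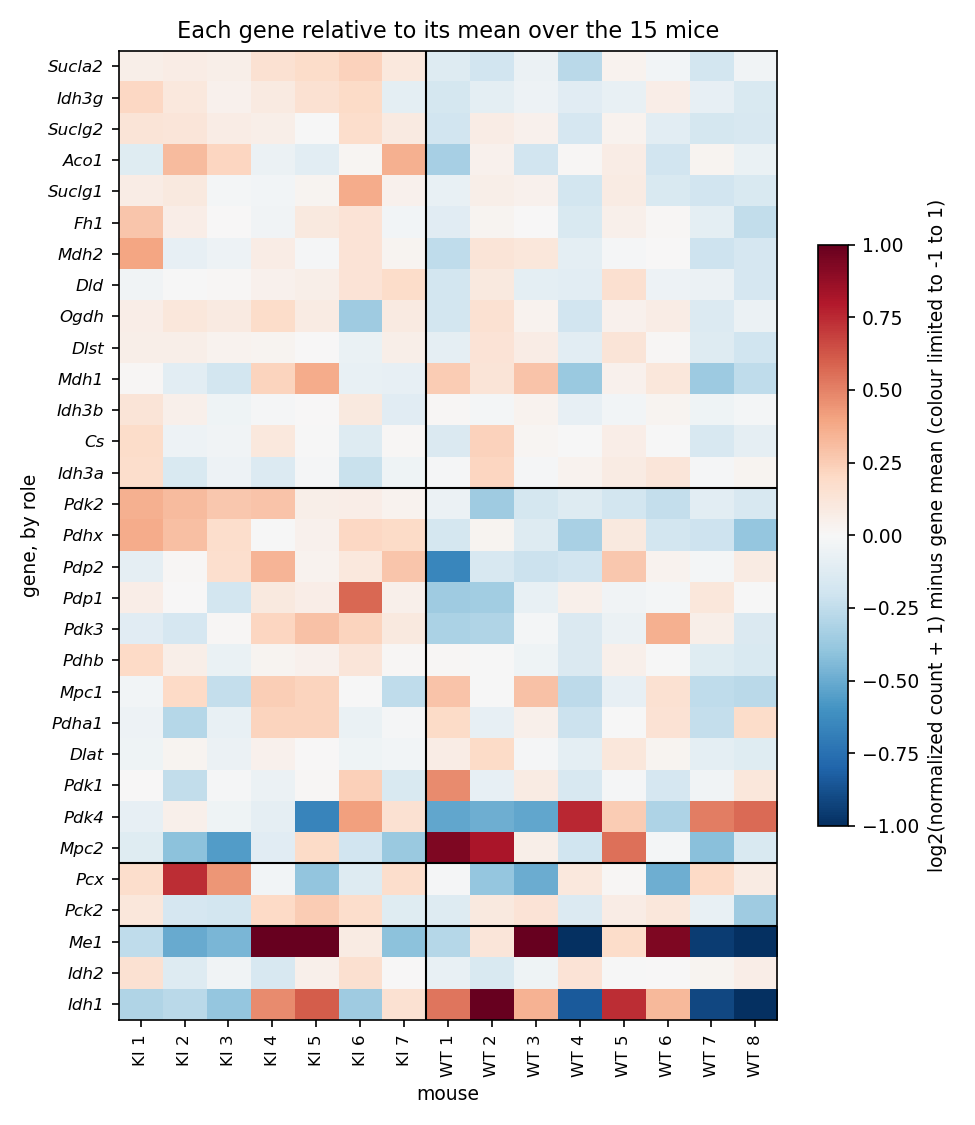
Each of the 31 genes (rows, by role and fold change) in each of the 15 mice (columns), as log2(normalized count + 1) minus the mean of the gene over the mice, with colour limited to 1 unit either way. Me1 and Idh1 change most from mouse to mouse within both genotypes, and the upper block of cycle enzymes is palest.

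The spread of Me1 ran across the genotypes, and at its ends it met the ends of Cyp17a1 and Star, which was noticed after the values were seen and was not tested. The 4 mice with the most Me1 were HSD17B1-KI 4 (212384), HSD17B1-KI 5 (164143), WT 3 (155631) and WT 6 (135205). The same 4 mice had the lowest counts of Cyp17a1, the theca enzyme of androgen synthesis, from 107 to 254, where the others had 2033 to 56551. At the other end, WT 4, WT 7 and WT 8 had the lowest 3 values of Me1 (28819 to 36581), of Idh1 (17716 to 22208) and of Mdh1 (11541 to 12495), and also of Star (5151 to 6635), the cholesterol transport protein of steroidogenic cells, whose counts elsewhere were 18097 to 103552. Between the ends the orders differed, as the same WT 4, WT 7 and WT 8 had middling Cyp17a1 (13298 to 21605), and the 4 mice with the most Cyp17a1 ranked 8 to 12 of 15 for Me1. The 7 luteal markers were not alike at the upper end. Star, Cyp11a1 and Hsd3b1 were highest in HSD17B1-KI 4 or HSD17B1-KI 5, with Cyp11a1 at 470912 and Hsd3b1 at 439507 in HSD17B1-KI 4. Scarb1, Prlr, Akr1c18 and Ptgfr, the luteal prostaglandin receptor, were highest in WT 2. Ptgfr had 13612 there and only 1429 in WT 3. WT 4, WT 7 and WT 8 had the lowest 3 values of Cyp11a1 and Prlr, as of Star. Those of Hsd3b1, Scarb1, Ptgfr and Akr1c18 were not all in these mice.

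**Figure D4:**
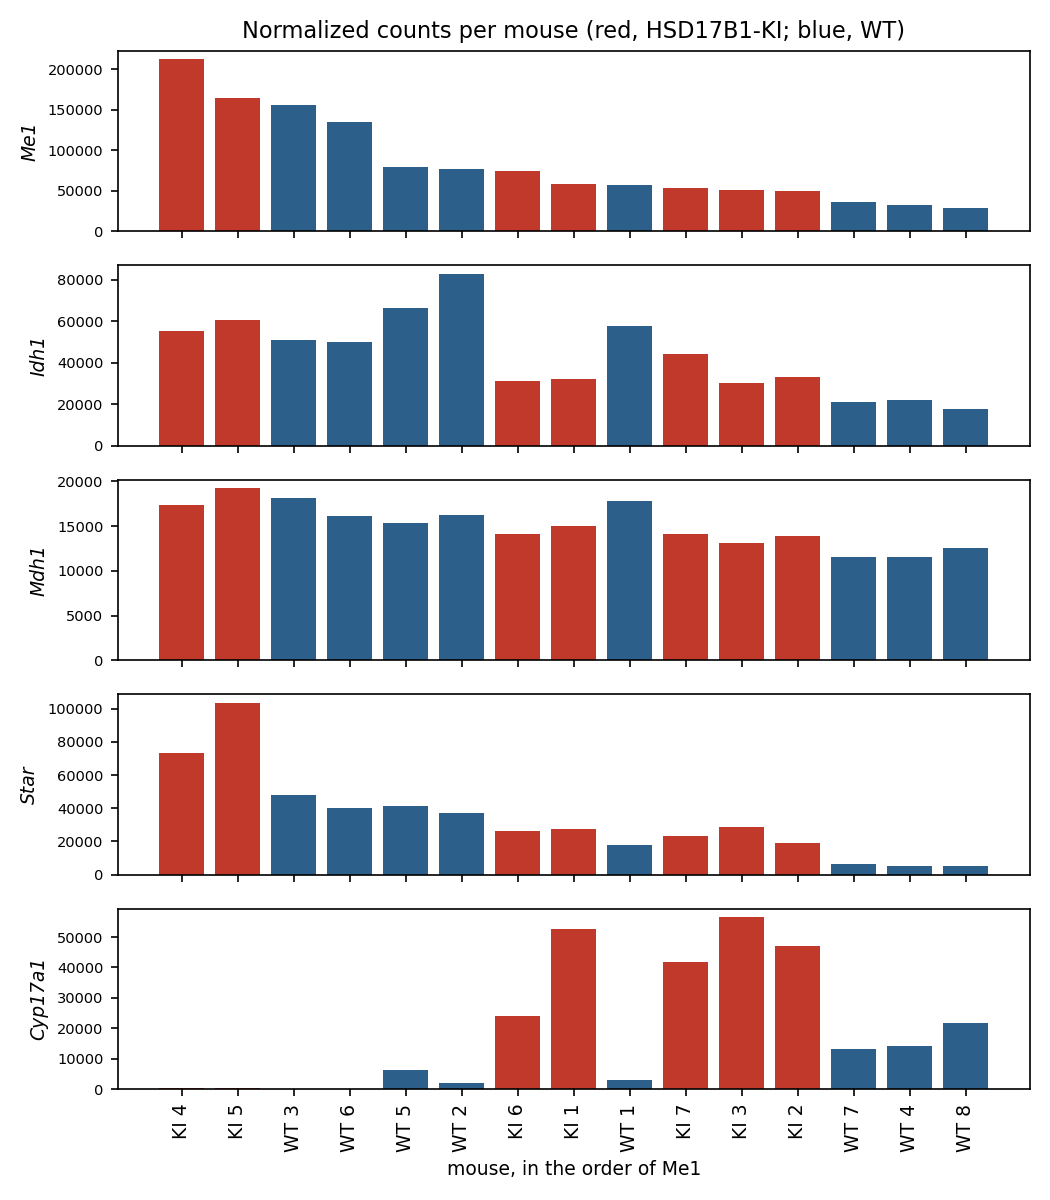
Normalized counts of Me1, Idh1, Mdh1, Star and Cyp17a1 in each mouse (HSD17B1-KI in red, WT in blue), with the mice ordered by Me1 from the highest. The 4 mice on the left have the lowest Cyp17a1, and the 3 WT mice on the right have the lowest Idh1, Mdh1 and Star.

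As a score, the mean over genes of the centred log2 values, all 31 genes together gave 0.050 ± 0.057 (SD, n = 7) in HSD17B1-KI. In WT the score was -0.043 ± 0.095 (SD, n = 8), and the difference of 0.09 was not tested. The cycle enzymes alone gave 0.052 ± 0.032 and -0.046 ± 0.086, with each of the 7 HSD17B1-KI scores over the WT mean and 1 over the WT range. The WT mice were split, as WT 1, WT 4, WT 7 and WT 8 had cycle scores from -0.13 to -0.12, and WT 2, WT 3, WT 5 and WT 6 had -0.0067 to 0.07, within or near the HSD17B1-KI range of 0.01 to 0.12. Of the 4 low mice, WT 1 and WT 8 are the libraries with the most oviduct marker reads, and WT 4, WT 7 and WT 8 are those with the least Star. Without WT 1 and WT 8 the difference was 0.07 for all 31 genes and 0.07 for the cycle enzymes. Pyruvate entry gave a difference of 0.07, the oxaloacetate genes 0.17 and the NADPH genes 0.11, the last with an SD of 0.40 and 0.53 in the groups.

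**Figure D5:**
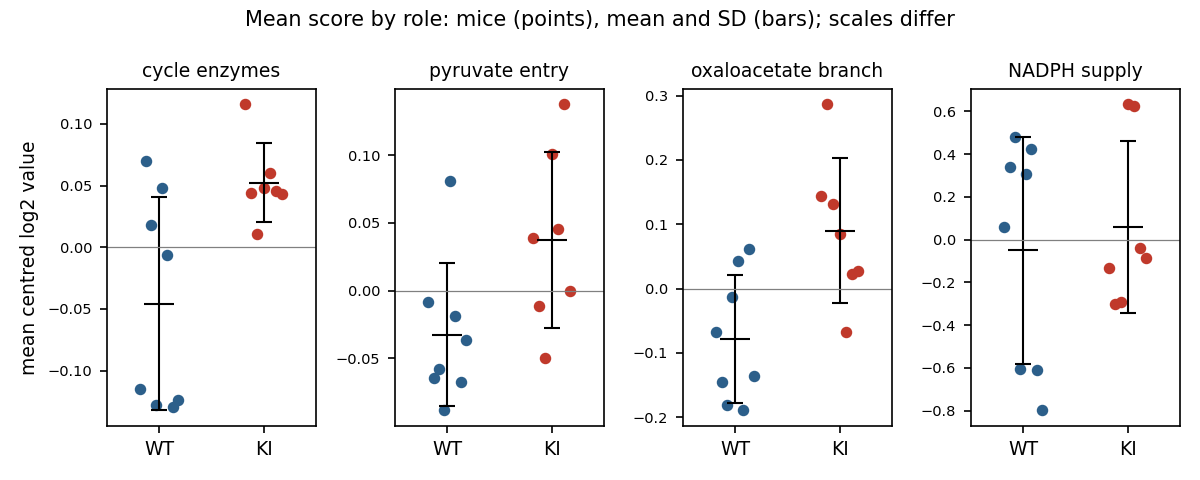
Mean centred log2 value per mouse (points) for each role, with the group mean and SD (bars), WT in blue (n = 8) and HSD17B1-KI in red (n = 7), on scales that differ between panels. In the cycle panel 4 WT mice lie near -0.12, WT 6 at -0.0067 lies just under the lowest HSD17B1-KI mouse, and WT 2, WT 3 and WT 5 lie among the HSD17B1-KI mice, and in the NADPH panel both groups spread widely.

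Genes joined to the cycle but outside the 31 were read from a list of 30 enzymes and carriers, among them lipoate synthesis, glutamate and lactate metabolism, transaminases and mitochondrial carriers. All 30 were tested, 26 had a log2 fold change above 0 (44.8% of all genes did), with a median of 0.08, and 0 passed the limma-trend adjusted threshold. Before adjustment 6 were higher and 1, Ldha, was lower, against 5.36% and 4.64% of all genes, and DESeq2 called 1, Pgd, against 1.59%. Pgd, the second dehydrogenase of the pentose phosphate pathway and a source of NADPH, had 9879.5 ± 626 (SD, n = 7) and 8451 ± 528 (SD, n = 8) normalized counts, with every HSD17B1-KI mouse above every WT mouse. Its log2 fold change was 0.23, with a limma-trend adjusted p of 0.107 and a DESeq2 adjusted p of 0.00576. Lias, lipoate synthase, whose product is the cofactor of Dlat and Dlst, had a log2 fold change of 0.19 (limma-trend adjusted p = 0.265). Ldha, the lactate dehydrogenase subunit, had one of -0.22 (limma-trend adjusted p = 0.281).

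A second list held 23 genes of mitochondrial upkeep, such as import, dynamics, proteases and the regulators of mitochondrial gene expression. Of these, 16 had a log2 fold change above 0, with a median of 0.04, 5 were higher and 0 lower before adjustment, and limma-trend called 0 after it, while DESeq2 called 1, Immt. The shares of all genes are those given for the first list. Immt, the core of the complex that shapes the cristae, had 10766 ± 809 (SD, n = 7) and 9218 ± 320 (SD, n = 8) normalized counts without overlap, a log2 fold change of 0.22, a limma-trend adjusted p of 0.0920 and a DESeq2 adjusted p of 0.00217. Vdac3, an outer membrane channel, had a log2 fold change of 0.15 (limma-trend adjusted p = 0.443) and Lonp1, the matrix protease, 0.31 (limma-trend adjusted p = 0.458).

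Of the markers of other tissues and cell types, limma-trend called 1 after adjustment, Aldh1a1 of the theca and interstitial list, in the same libraries. DESeq2 called 2, Aldh1a1 and Insl3, a peptide hormone of theca cells from the same list. The normalized counts of Insl3 were low, 67.7 ± 35.5 (SD, n = 7) against 26.8 ± 5.84 in WT (n = 8), with overlapping ranges, a limma-trend adjusted p of 0.110 and a DESeq2 adjusted p of 0.00234. Of the 6 markers of theca and interstitial cells, 6 had a log2 fold change above 0, 2 were higher before adjustment, and their summed level was 158120 to 343172 normalized counts in HSD17B1-KI against 105670 to 174971 in WT. Most of that sum was Aldh1a1, with a mean of 219462 against 107842, and Cyp17a1 was at 224 and 254 in HSD17B1-KI 4 and HSD17B1-KI 5. Of the 5 adipose markers, 4 were lower and 1 (Plin1) was higher before adjustment, at 2550.6 to 8493 against 3142 to 11081. Of the 6 smooth muscle markers, all had a log2 fold change under 0 and 2 were lower before adjustment, at 38613 to 82352 against 46568 to 81056. Of the 5 surface epithelium markers, 2 were lower before adjustment, at 8025 to 14022 against 9795 to 33397. The 6 oviduct markers had 349 to 23534 against 350 to 226369 and 0 passed before adjustment, as was so for the markers of luteal cells, granulosa cells, oocytes, macrophages, endothelium, stroma and erythroid cells. Over all genes tested, 5.36% were higher and 4.64% lower before adjustment. After it, limma-trend called 0.214% in either direction, and DESeq2 called 1.59% of its genes as higher and 0.718% as lower. No marker was at 0 in all mice. The part of these markers in the differences of the 31 genes was not tested, other than by the oviduct marker score as a covariate. With it the log2 fold change of Pdk2 was 0.39 (limma-trend adjusted p = 0.0260). Suclg1, Fh1 and Mpc2 then no longer had an unadjusted limma-trend p under 0.05, and 5 of the 31 genes did.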

How the data were processed

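Ovarian RNA of 7 HSD17B1-KI and 8 WT mice was sequenced from stranded mRNA libraries. The authors used bcl2fastq 2.20 and STAR 2.7.3 with mm10, counted reads on genes and deposited 1 table of normalized counts, a signal equal to reads divided by a size factor per library. The counting program and annotation are not given in the sources used here. Whole reads were recovered for 100% of values within 0.01 and used for edgeR and DESeq2. No column was left out.

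The members and gene lists were chosen with earlier results of these data known. limma-trend was fitted on log2(normalized count + 1) for the 21525 genes averaging 2 normalized counts or more, two-sided, with Benjamini-Hochberg adjustment. It was made the main test because the values were deposited as normalized counts, although the paper names DESeq2. DESeq2, run on the recovered reads as an alternative, called 314 genes as higher and 142 as lower, the same numbers as in the paper. Per-mouse values are given for members called by limma-trend or DESeq2, the member with the lowest p in each role, the kinases, the carrier subunits and the extreme fold changes, and Suclg1, Suclg2, Fh1, Idh1, Idh2 and others were added after their values were seen. From the 2 other lists the 3 genes with the lowest p are named. Alternatives were another pseudocount (0.1 or 10), another filter (none, or an average of 10), quantile normalization, upper quartile scaling, edgeR with TMM, DESeq2, a replicate block, an oviduct marker score as covariate and leaving out each mouse. Leaving out WT 1 and WT 8 together was chosen after seeing the data. The tests were tried on simulated counts in which 200 genes were changed 3-fold. No member changed by that much, so the simulation does not show how changes of their size are found.

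Positions are from GENCODE M21 (GRCm38), which held 27533 of 27907 identifiers, and promoters are from RefSeq (GRCm38.p6), which matched 29 of 31 members. Adgre1 was found under Emr1. Calculations were made with limma 3.58.1, DESeq2 1.42.0 and edgeR 4.0.16 in R 4.3.3, and with pandas 2.3.3 and matplotlib 3.10.9 in Python 3.11.15.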

Additional observations from a re-analysis of the deposited data

Results flagged for a closer look

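In 5 of 62 groups (31 genes in each genotype) the highest or lowest mouse stood apart from the rest of its group, and chance gives about 1 in 20 such groups. Of the 5, 3 are HSD17B1-KI 6. For Ogdh it had 9786 normalized counts, below the nearest HSD17B1-KI mouse at 13124, and without it the log2 fold change was 0.14 instead of 0.07. For Suclg1 it had 6939, above the nearest at 5717, and without it the log2 fold change was 0.10 instead of 0.15. For Pdp1 it had 3976, above the nearest at 2859, and without it the log2 fold change was 0.10 instead of 0.18. For Mdh2, HSD17B1-KI 1 had 16456 normalized counts with the nearest at 13772, and without it the log2 fold change was 0.08 instead of 0.13. For Pdk1, WT 1 had 2873 with the nearest at 2230.2, and without it the log2 fold change was 0.0086 instead of -0.06. In none of these 5 genes did limma-trend give an adjusted p under 0.05 with or without the mouse.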

How the results depend on the processing

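The number of members with an adjusted p under 0.05 was 1 with limma-trend, 4 with DESeq2 and 0 under quantile normalization, with the replicate block and without WT 1 and WT 8, and 0 to 1 without 1 mouse. DESeq2 gave 3 to 5 without 1 mouse, where it called 272 to 674 genes in all. The number past an unadjusted p was 8 (2153 of all genes), and 5 under quantile normalization, with the oviduct marker score as covariate and without WT 1 and WT 8 (2223, 2317 and 1887 of all genes), and 6 to 10 without 1 mouse. On all mice limma-trend called 46 genes and DESeq2 456, and limma-trend called 6 to 139 without 1 mouse. Members with a log2 fold change above 0 numbered 22 to 27 over all settings, and the median log2 fold change was 0.06 to 0.12. The cause of these moves was not tested.

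The sign turned, at a small log2 fold change, for Cs under quantile normalization (-0.0058) and without WT 1 and WT 8 (-0.012), for Pdha1 with the replicate block (0.016) and without WT 1 and WT 8 (0.052), for Pdk1 without WT 1 and WT 8 (0.033), for Pdk4 with the replicate block (0.0089) and for Idh2 under quantile normalization (-0.0033). Without 1 mouse it ran from -0.0053 to 0.058 for Cs, -0.014 to 0.087 for Mdh1, -0.048 to 0.037 for Pdha1, -0.042 to 0.0029 for Dlat, -0.10 to 0.0086 for Pdk1, -0.15 to 0.036 for Pdk4, -0.00048 to 0.082 for Mpc1, -0.19 to 0.13 for Idh1 and -0.013 to 0.040 for Idh2.

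The replicate numbers name the mice and do not pair them, as the correlation of same-numbered mice ran from -0.55 to 0.55 over 7 numbers and 1 of 7 correlated best with its own number. With the replicate block limma-trend called 0 genes, and the adjusted p of Pdk2 was 0.371 at a log2 fold change of 0.38. The fewest recovered reads of any member in a mouse were 298 (Pdp2 in WT 1), and how far depth limits these values beside the spread between mice was not compared.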

Other observations

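Pdk2, Mdh1 and Ogdh lie on chromosome 11 with Hsd17b1 (chr11:101078411-101080527), at 6.04 megabases for Pdk2, 79.5 for Mdh1 and 94.7 for Ogdh. Of the 3, only Pdk2 passed the limma-trend adjusted threshold, and which stretch of the chromosome came with the knock-in allele is not given in the sources used here.

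In the list of genes joined to the cycle, the largest log2 fold change was that of Ogdhl, the 2-oxoglutarate dehydrogenase-like gene, at 0.75, with means of 2180 normalized counts in HSD17B1-KI (n = 7) and 1192 in WT (n = 8), a limma-trend adjusted p of 0.288 and a DESeq2 adjusted p of 0.0527. Ogdhl was chosen after its values were seen.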
